A study of Homo sapiens with 27 samples.

Results

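The cytosolic ribosomal protein genes were examined in DLD1 cells, an established human colorectal carcinoma line, after depletion of the VPS37 paralogs. Members were the genes of the deposited table with a RefSeq accession whose symbol has the form RPL or RPS plus a number, together with RPSA, RPLP0, RPLP1 and RPLP2, without the RPS6K kinases and without pseudogenes. This rule took 76 of 10470 genes. They comprised 28 genes for proteins of the small (40S) subunit, 44 for proteins of the large (60S) subunit and the 4 paralogs RPL22L1, RPL26L1, RPL7L1 and RPS27L. RPL39L, RPL3L and RPL10L were not analysed here. VPS37A, VPS37B and VPS37C encode alternative subunits of ESCRT-I, a complex that sorts membrane proteins at endosomes, and the study asked how loss of 1, 2 or all 3 of them alters the transcriptome. Total RNA was taken 72 h after transfection and read with an amplicon panel for human transcripts, in 27 libraries of 9 groups with 3 replicates each. The groups were siVPS37A, siVPS37B and siVPS37C (1 paralog each), siVPS37AB, siVPS37AC and siVPS37BC (pairs), siVPS37ABC (all 3), siCTRL (a mixture of non-targeting siRNAs) and NT (untransfected cells). All 9 groups were the same cell line in the same medium, and each paralog was targeted with 1 siRNA sequence, so an effect of a paralog's loss and an effect of that siRNA cannot be told apart. The replicates are named biological in the labels, whose batch field repeats the replicate number, and p-values measure the spread between these samples.

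Ribosomal proteins assemble with ribosomal RNA into the 2 subunits of the ribosome, and the cell needs them in matched amounts. Their mRNAs are the classical TOP mRNAs, which begin with a C followed by a run of pyrimidines at the 5′ end, and mTORC1, a kinase complex that responds to nutrients on the lysosome, controls their translation through LARP1 and the 4E-BP proteins. In most growing cells they are among the most abundant mRNAs, and colorectal carcinoma cells are known for active ribosome production.

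The promoter table of RefSeq (GRCh38.p14) held a start site for 62 of the 76 members, and the first listed start of each gene was used. The 30 bases around it are shown for some of the members called in a comparison below and for 2 pairs of a parent gene and its paralog. The pyrimidine run is the feature of TOP mRNAs described above. Of the other called members, RPS2 and RPL23A had no start site in the promoter table, and RPS15 is not shown. Each sequence runs 5′ to 3′ on the strand of the gene, with 15 bases before the annotated start and 15 from it on, and capitals mark the longest run of at least 5 pyrimidines that begins with C within 10 bases of the start.
RPS25 (chr11:119018329-119018358, minus strand): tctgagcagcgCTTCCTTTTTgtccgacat
RPL34 (chr4:108620561-108620590, plus strand): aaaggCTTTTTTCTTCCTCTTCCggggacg
RPL9 (chr4:39458908-39458937, minus strand): gtacgtaatgacgacagacgttCTTTCTTT
RPL13 (chr16:89560642-89560671, plus strand): ggccctgctatcatcccagagtgcattgcg
RPS29 (chr14:49598696-49598725, minus strand): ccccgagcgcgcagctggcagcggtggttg
RPL22 (chr1:6199581-6199610, minus strand): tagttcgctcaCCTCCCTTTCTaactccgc
RPL22L1 (chr3:170870181-170870210, minus strand): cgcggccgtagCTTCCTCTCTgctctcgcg
RPL26 (chr17:8383179-8383208, minus strand): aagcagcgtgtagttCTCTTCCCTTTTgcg
RPL26L1 (chr5:172958714-172958743, plus strand): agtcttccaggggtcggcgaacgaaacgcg

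Such a run near the annotated start was found in 52 of the 62 members (83.9%), against 33.3% of all 27305 promoters in the table. The annotated first base was a C in 43 members (69.4%), against 15% of all promoters. Mitochondrial ribosomal protein genes, which build the separate ribosome of mitochondria, had a run in 30.8% and a first C in 10.8% of 65 matched genes. The letters CTTT stood near the start in 56.5% of members and 10.1% of all promoters. CCGGAAG, an ETS factor motif, was sought within 300 bases, 250 before and 50 after the start, on either strand. It occurred in 35.5% of members, 41.5% of mitochondrial ribosomal protein genes, 21% of the 8359 matched genes of the deposited table and 10.7% of all promoters. AAGATGG, a YY1 motif, occurred in 12.9%, 32.3%, 8.21% and 6.06% of the same sets. These matches describe letters around annotated starts, and the annotated start can differ from the one used in DLD1 cells. RPL13 and RPS29 have no marked run at the start used here.

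In the libraries with an siRNA against it, VPS37A stood at 2.52 to 10.2%, VPS37B at 2.08 to 8.78% and VPS37C at 17.8 to 31.8% of its siCTRL mean (12 libraries each). Depth was 5252496 to 14252058 reads per library. Of 8 colorectal epithelial markers, 7 averaged at least 10 TPM (reads divided by transcript length and scaled to the same total in every library), and fibroblast and endothelial markers were not analysed here. The 1 leukocyte marker with a row stood at 1.99 to 4.46 TPM in siVPS37ABC, against 6.17 to 9.18 TPM in siCTRL, and its part in the results was not tested. The labels also carry a library number. Within a replicate, siCTRL shares it with a knockdown only in replicate 3 of siVPS37B and siVPS37C. Replicate 3 of siVPS37AC and siVPS37ABC carries the number of siCTRL replicates 1 and 2, and no library of siVPS37A, siVPS37AB or siVPS37BC shares a number with siCTRL. In bulk RNA, fewer cells that express a gene and less of its RNA per cell cannot be told apart. Ribosomal protein genes have many processed pseudogenes, and how reads shared with them were handled is not given in the sources used here, so the levels of single members are uncertain.

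The family held 20.4% of all TPM, between 18.9 and 21.8% over the 27 libraries, and 9.97% of the reads. Of its members, 49 averaged over 1000 TPM, 16 lay between 100 and 1000, 7 between 10 and 100, and 4 under 10 TPM. RPLP2, an acidic protein of the stalk that recruits translation factors, was the highest at a mean of 22093 TPM (15235 to 35063 over libraries). The 40S protein RPS12 was also high, at 8607 TPM (7437 to 9864), with a range wholly below that of RPLP2. The lowest members of at least 10 TPM were RPL21 at 10.3, RPL14 at 10.7 and RPS26 at 28.7 TPM. The ranges of RPL21 and RPL14 overlapped. RPS29 at 9.17, RPL17 at 7.59, RPL31 at 5.47 and RPS27L at 0.597 TPM fell under the limit of 10 TPM used for the main test. TPM depends on the transcript length used as divisor, which was 7062 bases for RPS29 and 7072 for RPL14 against 441 for RPL34 and 462 for RPLP2, and each gene is read through an amplicon of its own efficiency.

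**Figure D1:**
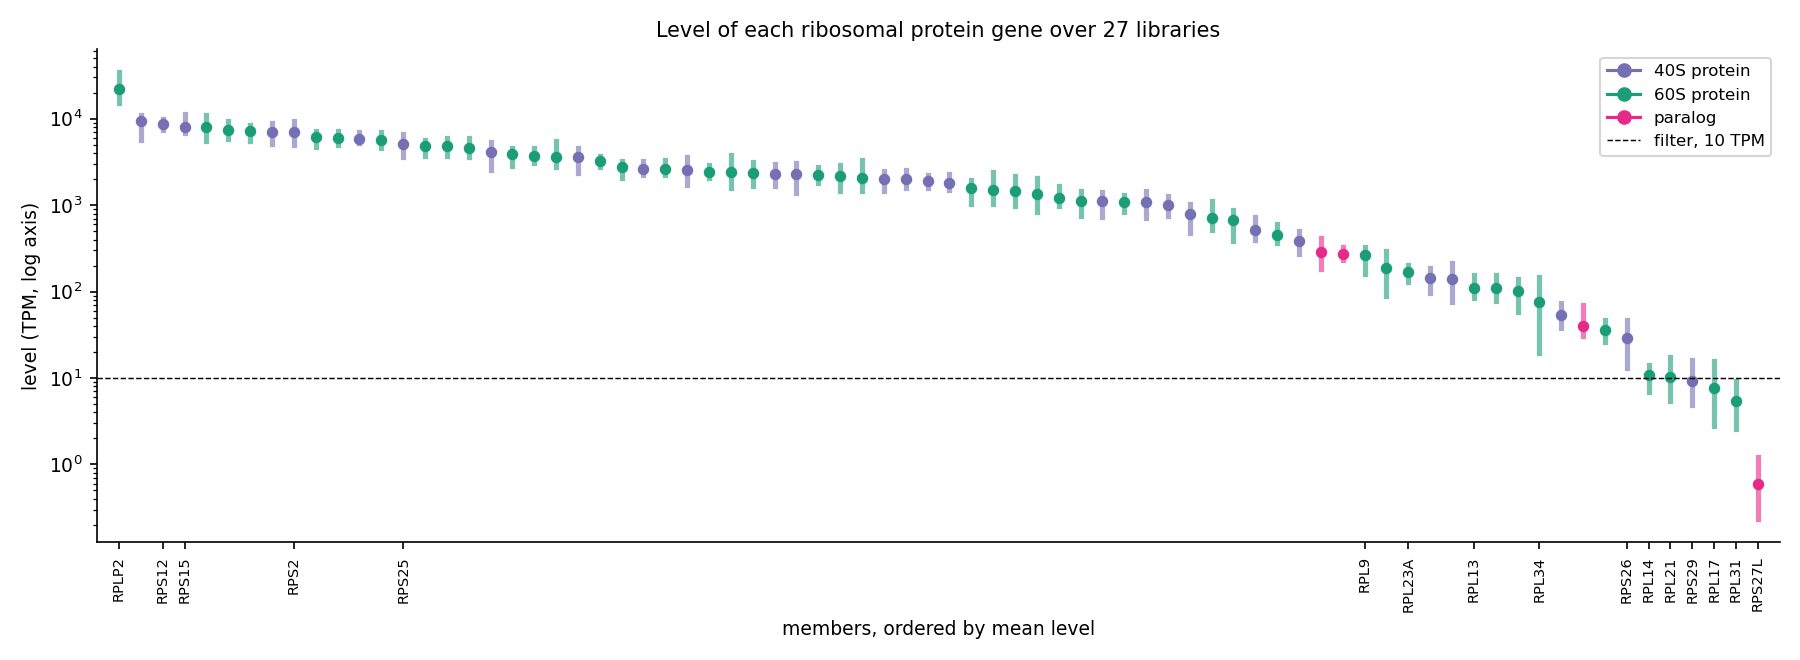
Mean level of each of the 76 members over 27 libraries (points, TPM on a log axis) with its range over libraries (lines), ordered from high to low and coloured by subunit, with the names of some members. RPLP2 stands at 22093 TPM, and 4 members lie under the dashed limit of 10 TPM.

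The summed level of the family in each knockdown overlapped that in siCTRL. It was 20.2 ± 0.726% of TPM in siVPS37ABC and 20.5 ± 0.222% in siCTRL (SD, n = 3 each), and 20.8 ± 0.949% in NT. The single knockdowns gave 20.0 ± 0.871% for siVPS37A, 20.4 ± 0.126% for siVPS37B and 21.0 ± 0.52% for siVPS37C. The pairs gave 19.7 ± 0.793% for siVPS37AB, 20.5 ± 0.509% for siVPS37AC and 21.0 ± 0.49% for siVPS37BC. The siCTRL range was 20.2 to 20.6%, and the ranges of all 7 knockdown groups reached into it. Between knockdowns, siVPS37AB (18.9 to 20.4%) lay just below siVPS37BC (20.5 to 21.5%). Compared within replicate numbers, siVPS37AB was below siCTRL in all 3 (19.9, 20.4 and 18.9%, against 20.6, 20.6 and 20.2%). siVPS37C (21.2, 21.4 and 20.4%) and siVPS37BC (21.0, 21.5 and 20.5%) were above it in all 3. The 60S members together stood at 1.5 ± 0.0536 times the 40S members in siVPS37ABC and 1.52 ± 0.125 times in siCTRL, with 1.34 to 1.68 over all libraries. The mitochondrial ribosomal protein genes summed to 0.926 ± 0.00752% of TPM in siVPS37ABC (0.918 to 0.932%) and 0.966 ± 0.0128% in siVPS37AB (0.958 to 0.981%), against 1.05 ± 0.0244% in siCTRL (1.02 to 1.07%). Those ranges did not overlap siCTRL, and siVPS37ABC also lay below the NT range of 0.956 to 1.05%. The sums are descriptions and carry no test.

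**Figure D2:**
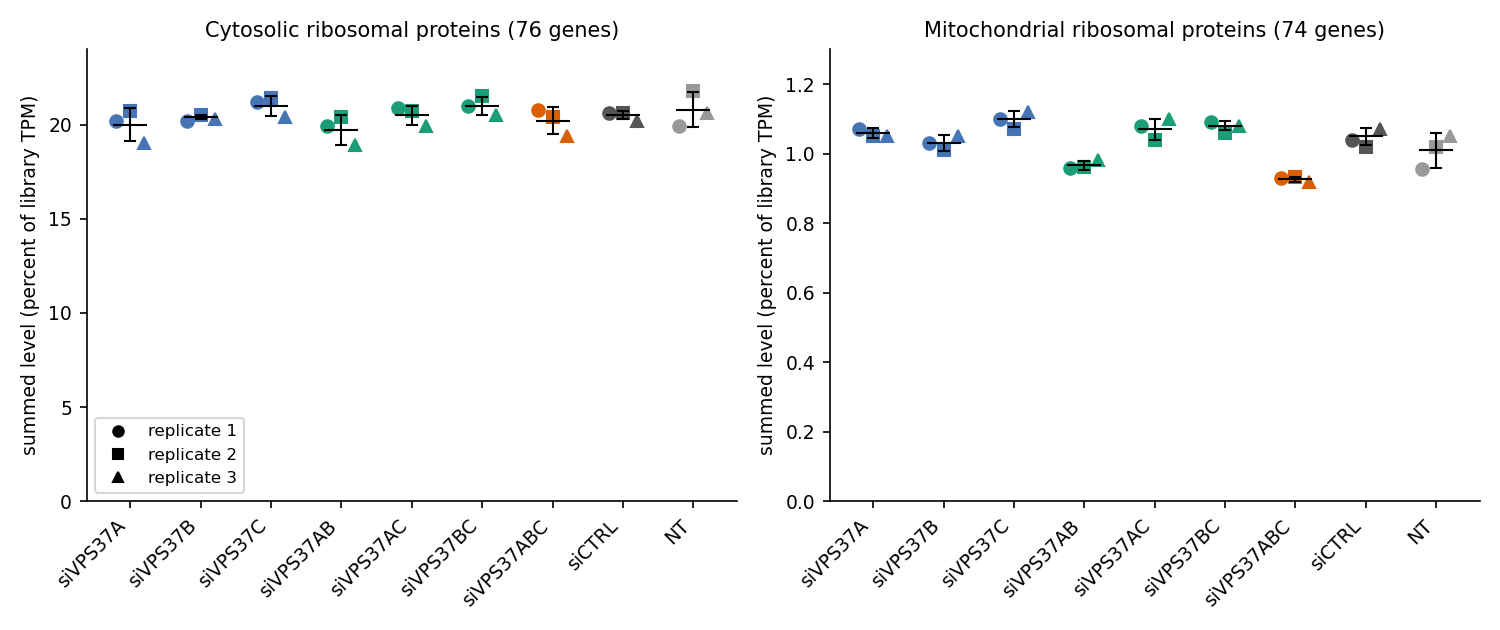
Summed level of the cytosolic (left) and mitochondrial (right) ribosomal protein genes as a percentage of library TPM, in each of the 9 groups, with markers for the 3 replicates and a bar at the mean, knockdowns left of siCTRL and NT. The cytosolic sums lie between 18.9 and 21.8%, each knockdown overlapping siCTRL, and the mitochondrial sums of siVPS37ABC lie at 0.918 to 0.932%, against 1.02 to 1.07% in siCTRL.

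Changes were tested on log2(TPM + 1) with limma in 1 model of all 9 groups, for the 72 members and 6386 other genes that averaged at least 10 TPM, with Benjamini-Hochberg adjustment over all 6458 genes and a threshold of 0.05. A fold change on this scale understates that of low genes. The triple knockdown called 6 members against siCTRL (8.33%), 3 higher and 3 lower, where 21.9% of all tested genes were called, 13.6% higher and 8.32% lower. The members' share thus lay below the background. The even split depended on the setting. Voom gave 1 higher and 6 lower, median ratio scaling 2 and 5, and NT in place of siCTRL 1 and 7. The shares of all tested genes called in those settings are not given here. siVPS37AB called 3 (4.17%), 1 higher and 2 lower, where the background was 14.8%, 11.2% higher and 3.61% lower. siVPS37AC called 1 higher (1.39%) where the background was 4.4%, 3.07% higher. siCTRL against NT called 1 lower (1.39%) where the background was 3.17%, 2.17% lower. The median log2 change of the members was -0.03 in siVPS37ABC, -0.05 in siVPS37AB and 0.08 in siVPS37AC, against 0.03, 0.07 and 0.07 over all tested genes. Quantile normalization turned the member medians of siVPS37ABC and siVPS37AB to 0.01, so their sign was not the same in every setting. The siVPS37AB median was negative in the other settings listed at the end. The members' median size of change, sign aside, was 0.15 in siVPS37ABC, against 0.25 over all tested genes. Knockdown comparisons share the siCTRL libraries, so calls of 1 member in several of them are not independent. A second model took the replicate number as a block, which the labels give as the batch. It called 10 members in siVPS37ABC, 5 in siVPS37AB, 5 in siVPS37AC and 4 in siCTRL against NT. The backgrounds were 33.1, 25.6, 11.8 and 8.86% in the same order. In each of these comparisons the members called by the main model were among those called with the block.

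**Figure D3:**
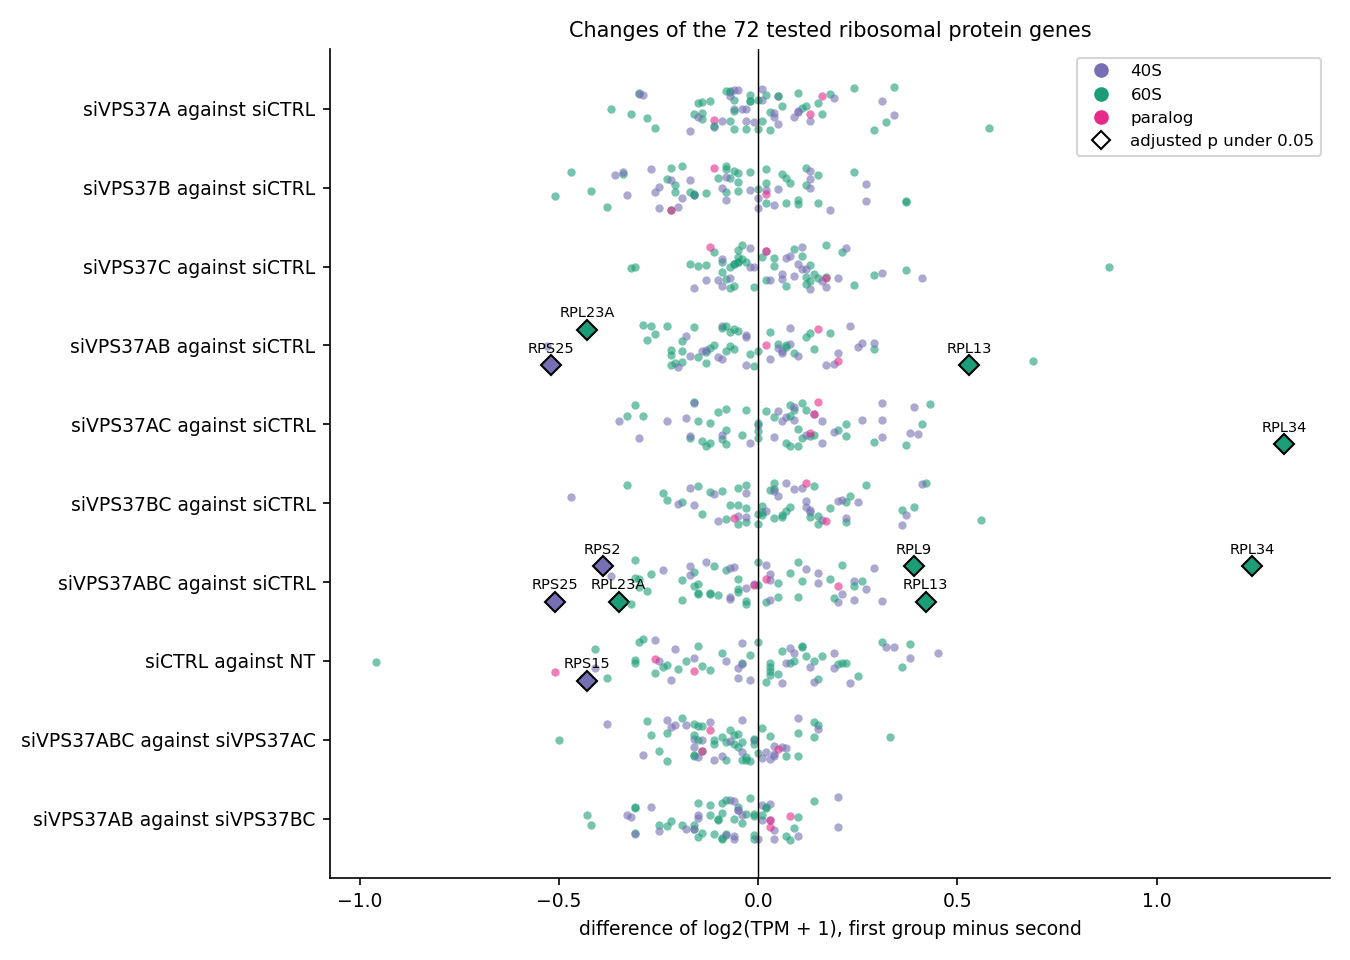
Difference of log2(TPM + 1), first group minus second, for the 72 tested members (points, coloured by subunit) in 10 comparisons, with members at an adjusted p under 0.05 as named diamonds. siVPS37ABC against siCTRL has 6 named members, and most points of every comparison lie near 0.

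Among the 40S proteins, 2 of 27 tested were lower in siVPS37ABC and none was higher, beside backgrounds of 8.32% lower and 13.6% higher. RPS25 is a protein of the 40S head that some viral RNAs need to recruit ribosomes. It had 3915, 4273 and 4245 TPM in siVPS37ABC, against 5771, 6398 and 5563 TPM in siCTRL, and 4522, 5756 and 6725 TPM in NT. All siVPS37ABC libraries lay below all siCTRL and NT libraries. RPS25 fell in siVPS37ABC by 0.51 ± 0.13 on the log2 scale (SE, limma, adjusted p = 0.0054). It had 3611, 4483 and 4294 TPM in siVPS37AB, also below every siCTRL and NT library, and fell there by 0.52 ± 0.13 (SE, limma, adjusted p = 0.00736). With NT in the place of siCTRL the changes were -0.43 (limma, adjusted p = 0.0148) and -0.44 (0.0173). With the library number as a term in the model neither call held, at -0.36 in both (limma, adjusted p = 0.0517 and 0.107), and in siVPS37AB 1 of 6 omissions of a library also ended it. RPS25 had 4610, 5059 and 4730 TPM in siVPS37A, 4632, 5263 and 4899 in siVPS37B, and 5705, 6477 and 5958 in siVPS37C. Only siVPS37C of these overlapped siCTRL, but none of the 3 changes passed the test.

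RPS2, which lines the entry channel of the mRNA, had 5961, 6296 and 4994 TPM in siVPS37ABC, against 7816, 7519 and 7246 TPM in siCTRL, and 6957, 6910 and 9250 TPM in NT. The siVPS37ABC libraries lay below all siCTRL and NT libraries. So did those of siVPS37AC (5459, 6147 and 6092 TPM), where RPS2 was not called by the main model. In siVPS37ABC RPS2 fell by 0.39 ± 0.14 on the log2 scale (SE, limma, adjusted p = 0.0453). The call was lost without the filter on low genes (limma, adjusted p = 0.0577), under quantile normalization, and in 5 of 6 omissions of a library. Against NT the change was -0.42 (limma, adjusted p = 0.0312).

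Among the 60S proteins, 3 of 42 tested rose and 1 fell in siVPS37ABC, beside backgrounds of 13.6% higher and 8.32% lower. RPL9, which lies near the site where translation factors bind, had 313, 301 and 322 TPM in siVPS37ABC, against 218, 248 and 247 TPM in siCTRL, and 214, 236 and 221 TPM in NT. All siVPS37ABC libraries were higher than all siCTRL and NT libraries. The same held for siVPS37AC (330, 308 and 307 TPM), whose change of 0.41 did not pass (limma, adjusted p = 0.0647). It also held for siVPS37A, siVPS37AB and siVPS37BC, where the main model did not call RPL9. In siVPS37ABC RPL9 rose by 0.39 ± 0.13 on the log2 scale against siCTRL (SE, limma, adjusted p = 0.0252), and by 0.48 against NT (limma, adjusted p = 0.00612). The call was lost in 3 of 6 omissions of a library and with voom on reads (0.33, limma voom, adjusted p = 0.059).

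RPL9 had another pattern in siVPS37B, with 181, 173 and 159 TPM, below the range of 214 to 330 TPM of all 24 other libraries. Its change there was -0.47 ± 0.13 (SE, limma, adjusted p = 0.0507), and -0.47 with the replicate block (limma, adjusted p = 0.0156). The other groups with siRNA against VPS37B were not low. RPL9 had 274, 274 and 328 TPM in siVPS37AB and 275, 272 and 314 TPM in siVPS37BC. Levels below the siCTRL range were thus seen in 1 of the 4 groups that received this siRNA.

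RPL34, a small 60S protein, had 94.3, 72.5 and 149 TPM in siVPS37ABC, against 66.4, 19.5 and 56.8 TPM in siCTRL. These values rest on 180, 148 and 513 reads in siVPS37ABC and on 133, 31 and 124 reads in siCTRL. The groups did not overlap, and siCTRL replicate 2 was the lowest of all 27 libraries. RPL34 rose by 1.24 ± 0.33 (SE, limma, adjusted p = 0.00717). In siVPS37AC it had 133, 97.8 and 91.7 TPM and rose by 1.32 ± 0.33 (SE, limma, adjusted p = 0.0199). Without siCTRL replicate 2 the changes were 0.70 and 0.78 and were not called (limma, adjusted p = 0.0903 and 0.167). Omission of siVPS37ABC replicate 3 (0.96), siVPS37AC replicate 1 (1.15) or siVPS37AC replicate 2 (1.37) also ended the call concerned. NT had 110, 71.4 and 72.2 TPM, and against NT the changes were 0.28 and 0.35 and did not pass the test (limma, adjusted p = 0.581 and 0.505).

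RPL13, a 60S protein whose gene is mutated in a form of skeletal dysplasia, had 131, 108 and 112 TPM in siVPS37ABC and 142, 110 and 128 TPM in siVPS37AB, against 93.5, 83.9 and 84.4 TPM in siCTRL. It rose by 0.42 ± 0.15 in siVPS37ABC (SE, limma, adjusted p = 0.0411) and by 0.53 ± 0.15 in siVPS37AB (SE, limma, adjusted p = 0.0158). The siCTRL libraries were lower than all 24 others, NT included, which had 98.9, 116 and 111 TPM. Against NT the changes were 0.11 and 0.22 (limma, adjusted p = 0.638 and 0.336). In siVPS37ABC no omission of a single library kept the call (limma, adjusted p between 0.0501 and 0.165), nor did voom, the library number, median ratio scaling or quantile normalization. The call held there with the replicate block, a filter at 50 TPM, no filter and a pseudocount of 8. In siVPS37AB the call was lost in 4 of 6 omissions, with the library number (0.40, limma, adjusted p = 0.0647) and after median ratio scaling (0.45, adjusted p = 0.0733).

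RPL23A, which sits at the exit of the peptide tunnel, had 158, 145 and 152 TPM in siVPS37ABC and 144, 159 and 128 TPM in siVPS37AB, against 191, 197 and 192 TPM in siCTRL. It fell by 0.35 ± 0.12 in siVPS37ABC (SE, limma, adjusted p = 0.0412) and by 0.43 ± 0.12 in siVPS37AB (SE, limma, adjusted p = 0.0171). The siCTRL libraries stood above 22 of the 24 others, and NT had 156, 171 and 170 TPM. Against NT the changes were -0.13 and -0.21 and did not pass the test (limma, adjusted p = 0.484 and 0.242). With the library number as a term they were -0.19 and -0.17 (limma, adjusted p = 0.295 and 0.436), and no omission of a library kept the siVPS37ABC call. The siVPS37AB call held in only 3 of 6 omissions.

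**Figure D4:**
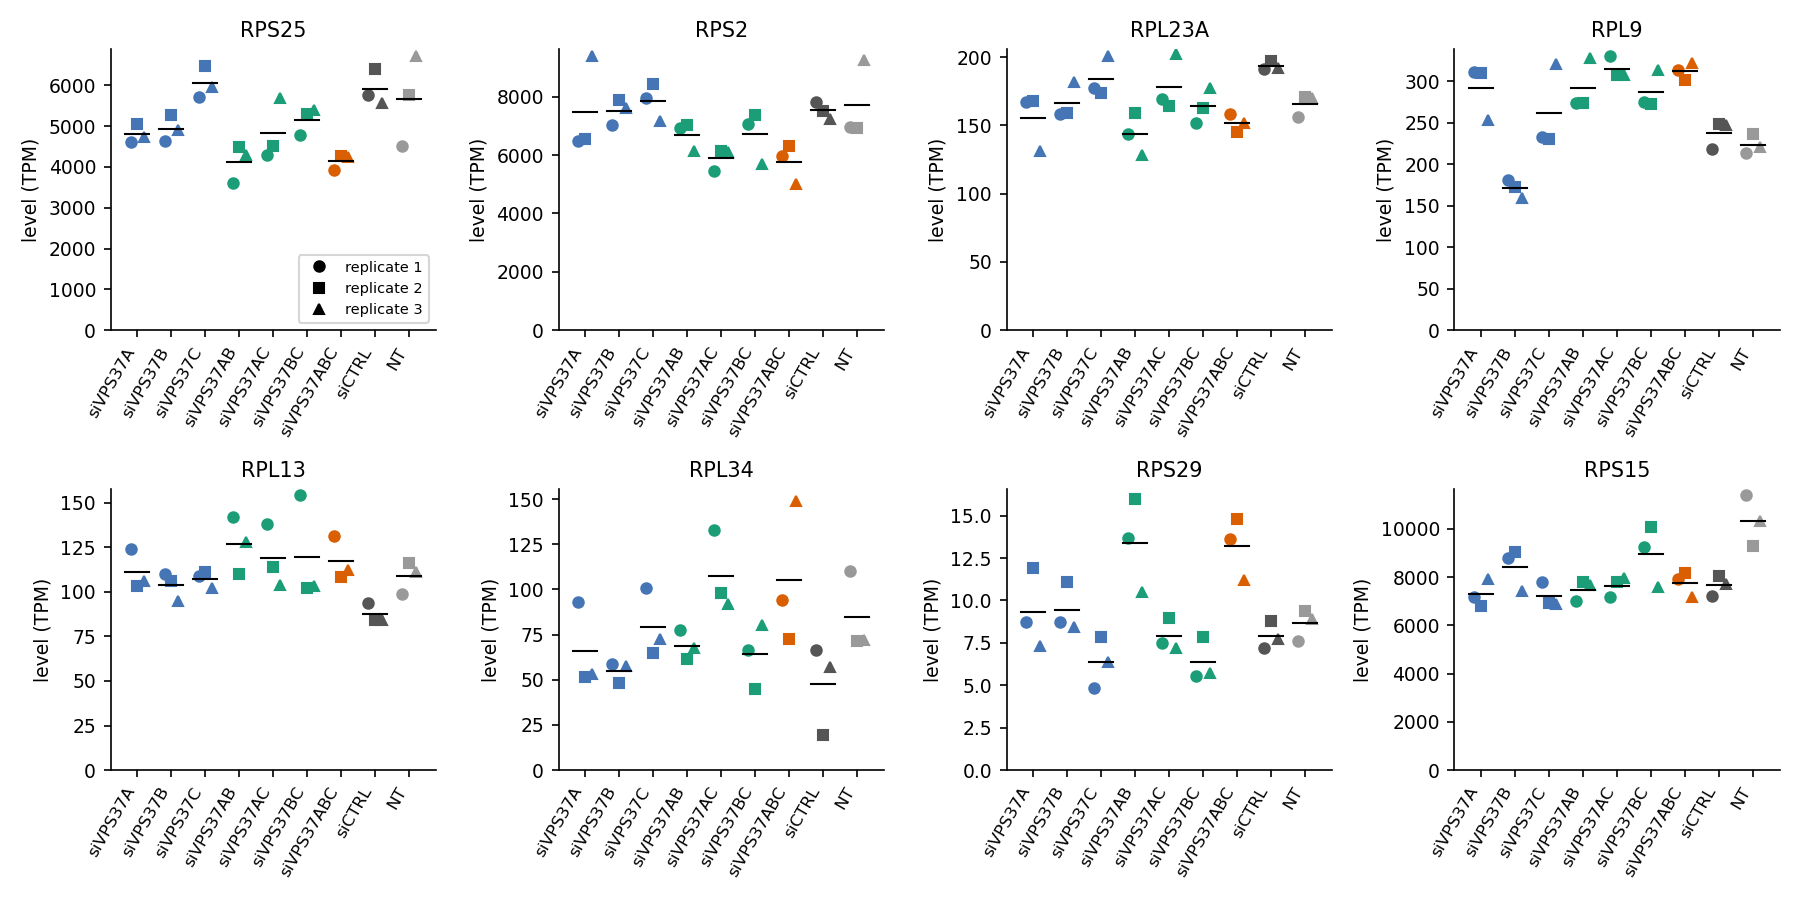
Level in TPM (axes from 0) of members called in a comparison, in each library of the 9 groups, knockdowns left of siCTRL and NT, with markers for the replicates and a bar at the mean. RPS25 is lower in siVPS37ABC than in siCTRL and NT, whereas the siCTRL libraries of RPL13 lie below those of all other groups.

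The stalk proteins RPLP0, RPLP1 and RPLP2, which recruit the GTPases of translation, had no call in any of the 10 comparisons, with log2 changes of -0.32, -0.10 and 0.10 in siVPS37ABC. RPL5 and RPL11, which with 5S ribosomal RNA bind the p53 regulator MDM2, changed by 0.21 and 0.05 in siVPS37ABC and were not called. The widest ranges over the 9 group means were those of RPL34 (1.32 on the log2 scale), RPL17 (1.15) and RPS29 (0.98). RPL11 had the narrowest (0.14), and that of RPL27A was 0.19. The median range was 0.38 over tested members, 0.44 over tested mitochondrial ribosomal protein genes and 0.55 over all tested genes. At over 1000 TPM it was 0.36 for members and 0.48 for the 107 other genes of that level.

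In the 4 remaining knockdowns no member passed the limma test against siCTRL, whether by the main model or by voom. In siVPS37A the background was 1.83% and 5 members had an unadjusted p under 0.05, the smallest for RPL23A (-0.32, adjusted p = 0.221) and the 40S protein RPS20 (0.31, adjusted p = 0.235). In siVPS37B it was 1.72% and 1 member, RPL9, described above, ahead of RPS25 (-0.26, limma, adjusted p = 0.323). In siVPS37C it was 0.496% and 4 members, led by the 40S protein RPS7 (0.41, limma, adjusted p = 0.372) and RPL34 (0.88, limma, adjusted p = 0.396). In siVPS37BC it was 1.29% and 9 members, led by RPS20 (0.41, limma, adjusted p = 0.104). With the replicate block RPL9 fell in siVPS37B, RPL34 rose in siVPS37C (adjusted p = 0.0495), and RPL13, RPL19 and RPS20 rose in siVPS37BC, while none passed in siVPS37A. The backgrounds with the block were 9.4% in siVPS37B, 2.07% in siVPS37C, 4.38% in siVPS37BC and 6.33% in siVPS37A.

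Transfection itself was assessed by siCTRL against NT. RPS15, a 40S protein near the decoding site, had 7202, 8039 and 7731 TPM in siCTRL, against 11421, 9283 and 10346 TPM in NT. The groups did not overlap, and NT lay above 23 of the 24 other libraries. RPS15 fell by 0.43 ± 0.12 in siCTRL (SE, limma, adjusted p = 0.037). The call was lost without the filter on low genes (limma, adjusted p = 0.0537), after median ratio scaling (0.0699), and in 5 of 6 omissions of a library. RPL37 (-0.44, limma, adjusted p = 0.0829), RPL34 (-0.96, adjusted p = 0.116) and the paralog RPL7L1 (-0.51, adjusted p = 0.101) did not pass. They did with the replicate block (limma, adjusted p = 0.0363, 0.0112 and 0.0233), beside a background of 8.86%, and with the library number as a term.

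Besides siCTRL against NT, both groups carried the same library number in all replicates in 2 of the comparisons run, both between knockdowns. siVPS37B and siVPS37C also share their library numbers, but were not compared with each other. In siVPS37ABC against siVPS37AC, which adds siRNA against VPS37B, limma and voom called 0 members, 0 had an unadjusted p under 0.05, and the background was 4.35% (12.2% with the replicate block, which also called 0 members). In siVPS37AB against siVPS37BC limma called 0 and voom 1, RPL37, while 6 had an unadjusted p under 0.05 and the background was 7.9% (16% with the replicate block, which called 2). RPL37 changed there by -0.43 (limma, adjusted p = 0.0559, and 0.0264 with the replicate block), and RPS25 by -0.33 (limma, adjusted p = 0.134, and 0.0318 with the block).

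RPS29, a 40S protein whose gene is mutated in some families with Diamond-Blackfan anaemia, lay under the filter and was tested in the model without it. It had 13.6, 14.8 and 11.2 TPM in siVPS37ABC, against 7.20, 8.78 and 7.75 TPM in siCTRL, and 13.7, 16.0 and 10.5 TPM in siVPS37AB. In the other pairs it had 7.49, 8.98 and 7.22 TPM in siVPS37AC and 5.55, 7.85 and 5.73 TPM in siVPS37BC, and in NT 7.62, 9.40 and 8.93 TPM. The siVPS37ABC and siVPS37AB libraries lay above all of siVPS37AC, siVPS37BC, siCTRL and NT. They overlapped siVPS37A (8.75, 11.9 and 7.34 TPM), and siVPS37AB also overlapped siVPS37B (8.73, 11.1 and 8.45 TPM), while siVPS37C had 4.82, 7.85 and 6.37 TPM. RPS29 rose by 0.67 ± 0.19 in siVPS37ABC (SE, limma without filter, adjusted p = 0.0122) and by 0.68 ± 0.19 in siVPS37AB (SE, adjusted p = 0.0161) against siCTRL. It also rose by 0.67 in siVPS37ABC against siVPS37AC (limma without filter, adjusted p = 0.0364) and by 0.96 in siVPS37AB against siVPS37BC (adjusted p = 0.00155), where the library numbers are shared. Without the filter the backgrounds were 20.2, 14, 4.62 and 7.82% in these 4 comparisons. RPS29 was singled out after its values were seen.

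None of the 3 paralogs tested passed the main limma test in any comparison. RPL7L1 passed with the replicate block in siCTRL against NT, as given above, and with NT in place of siCTRL in siVPS37B (-0.62, limma, adjusted p = 0.0326) and siVPS37ABC (-0.52, adjusted p = 0.0234). RPL22L1, the paralog of RPL22 that RPL22 is known to repress, had 242, 342 and 420 TPM in siVPS37ABC, against 237, 275 and 351 TPM in siCTRL (change 0.20 ± 0.22, SE, limma, adjusted p = 0.563). With the library number as a term its change was 0.55 in siVPS37ABC (limma, adjusted p = 0.00681) and 0.50 in siVPS37AC (adjusted p = 0.0232), and both passed. It stood above its parent gene in every library, at 3.1 ± 0.914 times RPL22 in siVPS37ABC and 2.88 ± 0.799 times in siCTRL (SD, n = 3 each), with 1.32 to 4.18 over all libraries. RPL26L1 was at 0.0429 to 0.0789 times RPL26, RPL7L1 at 0.0111 to 0.0219 times RPL7, and RPS27L at 0.000139 to 0.000707 times RPS27. These 3 paralogs stood below their parents in every library. Parent and paralog share sequence, so the split of reads between them is uncertain. The ratios also depend on the length divisor. It was 6110 bases for RPS27L against 352 for RPS27, and 3769 for RPL7L1 against 1233 for RPL7. In siVPS37A replicate 1, for example, RPS27L had 20 reads and RPS27 had 3711.

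The members also differed by replicate number, across all groups. The summed level averaged 19.9 ± 0.664% of TPM in replicate 3 and 20.5 ± 0.476% in replicate 1, with 20.9 ± 0.52% in replicate 2 (SD, n = 9 each). Replicate 3 was over 0.3 higher than replicate 1 on the log2 scale in 13 members, led by RPL39 (0.77), RPL24 (0.55) and RPL27A (0.55). It was over 0.3 lower in 3, RPL15 (-0.58), RPL8 (-0.56) and RPLP2 (-0.48). Together these were 22.2% of the 72 members, against 25.2% of all tested genes. The transcripts of the 13 had a median GC content of 47.8%, with 48.9% over members. Of the 3, RPL8 had 63.1% and RPLP2 60.6%, and RPL15 had no matched transcript. Across 69 members with a transcript sequence, which share the libraries, Pearson's r between GC content and this difference was -0.43 and Spearman's rho was -0.39, given as a description. The part of GC content in the differences between replicate numbers was not tested.

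**Figure D5:**
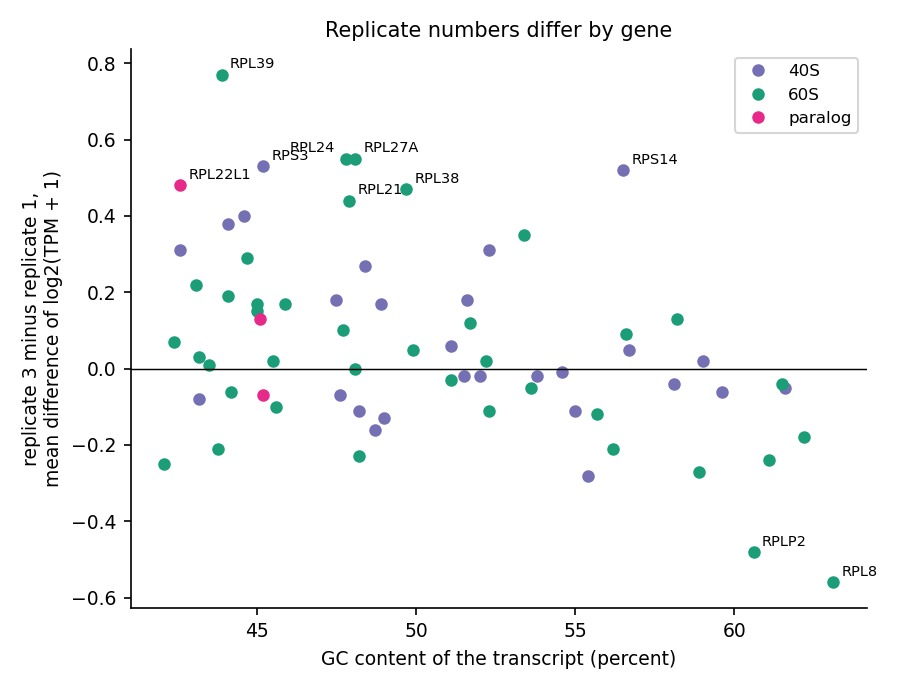
Mean difference of log2(TPM + 1) between replicates 3 and 1 over the 9 groups (vertical axis) against GC content of the transcript (horizontal axis, percent), 1 point per member with a transcript sequence, coloured by subunit. RPL39 lies highest at 0.77 and RPL8 lowest at -0.56, and RPL15, which has no GC value, is not plotted.

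Other genes of the translation apparatus were counted from lists. In siVPS37ABC against siCTRL, of 21 tested other TOP mRNA genes (translation factors and the like) limma called 0, with 4 at an unadjusted p under 0.05 and a median of 0.06, the replicate block called 2 higher and voom 1 lower. EIF4A2, an RNA helicase of translation initiation, rose in siVPS37AB (792, 709 and 612 TPM, against 549, 516 and 505 TPM in siCTRL, change 0.42 ± 0.13, SE, limma, adjusted p = 0.0298), the 1 of 21 called there beside a background of 14.8%. It did not pass with voom (0.37, limma voom, adjusted p = 0.0731). Of 69 mitochondrial ribosomal protein genes, 5 fell and none rose in siVPS37ABC, beside a background of 8.32% lower, and 11 fell with the replicate block, beside a background of 13.6% lower. MRPL12, a subunit of the mitochondrial ribosome, had 134, 135 and 144 TPM in siVPS37ABC, against 200, 230 and 260 TPM in siCTRL, and fell by 0.73 ± 0.16 (SE, limma, adjusted p = 0.00122). MRPL16 (-0.54, limma, adjusted p = 0.00538), MRPL3 (-0.44, adjusted p = 0.0125) and MRPL18 (-0.43, adjusted p = 0.0237) fell as well. Of 27 ribosome biogenesis genes, 4 fell and none rose, beside a background of 8.32% lower. Those that fell were BOP1 (-0.69), MYBBP1A (-0.56), NOLC1 (-0.49) and UBTF (-0.39), an activator of RNA polymerase I. Of 10 regulators of TOP translation, RHEB, the GTPase that activates mTORC1, rose by 0.46 (limma, adjusted p = 0.0328, but 0.0523 with voom) and EIF4EBP2, a translational repressor, fell by 0.62 on the log2 scale (adjusted p = 0.0182). CDKN1A, a cell cycle inhibitor and p53 target, had 87.2, 88.8 and 103 TPM in siVPS37ABC, against 12.8, 19.1 and 8.93 TPM in siCTRL, and rose by 2.74 ± 0.26 (SE, limma, adjusted p = 2.50e-08). It was the 1 called of 2 tested genes of its list, and the other changed by -0.19. NT had 35.8, 24.7 and 26.1 TPM of CDKN1A, and siCTRL was itself lower than NT (-1.07, limma, adjusted p = 0.0199). The list counts in siVPS37ABC stand beside backgrounds of 13.6% higher and 8.32% lower, and 21.9% in either direction, in the same comparison.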

How the data were processed

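Amplicon sequencing of DLD1 RNA gave 27 libraries. The deposited table gives TPM per gene and sample, with each column summing to 1000000. HTSeq 0.6.0, DESeq2 1.18.1 and the build hg19 are named, with no role, in the submitters' processing notes. Whole reads were recovered from the deposited TPM by the step of each library and a divisor per gene (100% of 282690 values within 1e-06 reads of a whole number); the divisor came within 5% of the GENCODE transcript length for 77.1% of 9797 genes. Empty lines (2157) were left out, and groups came from the labels.

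Values were analysed as log2(TPM + 1) with limma 3.58.1 in R 4.3.3, by 1 model of 9 group means with 18 residual degrees of freedom and a mean-variance trend, for genes averaging at least 10 TPM (6458). The median SE of a change was 0.173. Members, lists and tests were chosen with earlier results of these data known. Members named are those past the threshold (up to 5 a direction, or the 2 smallest p), the extremes of level and of range, and the paralogs; values of 3 single members are not reported here. Alternatives were another filter, none, a pseudocount of 8, median ratio scaling, quantile normalization, library number, NT as reference, each library left out and, chosen after seeing the data, voom on reads. The labels give the replicate number as a batch. After removal of group means same-numbered libraries correlated at a mean r of 0.355 (-0.386 to 0.757), so the blocked model is given beside results. The mean of -0.175 for different numbers follows from that value and the removal of group means, and is no separate observation. The model was tested on simulated data that held no effect of replicate or library number, so that test does not cover such effects. Sequences and starts are RefSeq's (GRCh38.p14), and figures were drawn with matplotlib 3.10.9 in Python 3.11.15. Intervals from single read counts are not given, and depth limits low members.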

Additional observations from a re-analysis of the deposited data

How the results depend on the processing

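None of the named member changes that passed the main test changed sign in the alternatives tried. The replicate block gave 1 member called in siVPS37B, 1 in siVPS37C, 5 in siVPS37AB, 5 in siVPS37AC, 3 in siVPS37BC, 10 in siVPS37ABC, 4 in siCTRL against NT and 2 in siVPS37AB against siVPS37BC. Library number as a term gave 10 in siVPS37AC, 6 in siCTRL against NT and 1 in siVPS37AB against siVPS37BC; in siVPS37AC and siVPS37ABC it called other members (RPL10, RPL22L1) besides RPL34, RPL9 and RPS2. Without the filter 1 was called in siVPS37B, 0 in siCTRL against NT, 1 in siVPS37ABC against siVPS37AC and 1 in siVPS37AB against siVPS37BC. Median ratio scaling called 2 in siVPS37AC, 0 in siCTRL against NT and 1 in siVPS37AB against siVPS37BC; quantile normalization called 0 and 2 in the last pair. NT in place of siCTRL called 1 in siVPS37A, 1 in siVPS37B, 1 in siVPS37C, 9 in siVPS37AB and 5 in siVPS37AC. Voom, chosen after seeing the data, called 1 in siVPS37AB against siVPS37BC. Backgrounds are given above for the main model, the replicate block and, in some comparisons, the model without filter. For the other settings and for omissions of a library no share over all tested genes is given. Their counts are therefore not read as results about the members.

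The median change moved by more than its spread as follows. In siVPS37A it was -0.08 with median ratio scaling and 0.02 with quantile normalization. In siVPS37AB it was -0.03 with library number and without the filter, -0.13 with median ratio scaling, 0.01 with quantile normalization, -0.08 with NT and -0.11 with voom. In siVPS37AC it was 0.00 with median ratio scaling, 0.01 with NT and 0.02 with voom. In siVPS37BC it was 0.10 with library number, 0.02 with median ratio scaling and -0.01 with NT. It was -0.09 in siVPS37ABC with voom. In siVPS37AB against siVPS37BC it was -0.13 with median ratio scaling and -0.11 with voom. Median ratio scaling moved the summed level to 210785 TPM in siVPS37B, 198216 in siVPS37AC and 208339 in siCTRL.

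Leaving out 1 library in turn gave 0 to 3 calls in siVPS37AB, 0 to 1 in siVPS37AC, 1 to 4 in siVPS37ABC, 0 to 1 in siCTRL against NT and 0 to 1 in siVPS37AB against siVPS37BC. The siVPS37ABC count was 2 without siCTRL 1, siCTRL 2 or siVPS37ABC 1, and 1 without siVPS37ABC 3. The siVPS37AB count was 0 without siVPS37AB 1 and 1 without siCTRL 2 or siVPS37AB 3. The siVPS37AC count was 0 without siVPS37AC 1, siVPS37AC 2 or siCTRL 2. The siCTRL against NT count was 0 without NT 1, NT 3 or any siCTRL library, and the siVPS37AB against siVPS37BC count was 1 without siVPS37BC 3. The medians lay at -0.07 to -0.01 in siVPS37AB, 0.04 to 0.08 in siVPS37AC, 0.03 to 0.09 in siVPS37BC and -0.11 to 0.02 in siCTRL against NT. These omissions have fewer samples; the cause of other shifts was not tested. RPL34, RPL21 and RPL17 rest on few reads.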
